A study of Mus musculus with 8 samples.

Results

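Cells hold on to their surroundings through receptors in the plasma membrane, and 35 genes of such receptors were followed in C2C12 cells, a mouse myoblast line. They were picked by symbol, with earlier results of these data known. They cover 12 integrin α chains, 6 integrin β chains, 4 syndecans, the hyaluronan receptor Cd44 and the proteoglycan Cspg4. The rest are 5 adhesion molecules of the immunoglobulin family, 4 cadherins and 2 discoidin domain receptors. All 35 were among the 35976 genes of the table, and 29 were expressed strongly enough to be tested. The libraries came from 4 samples of C2C12 myoblasts with an shRNA that targets Atad2, the gene of an AAA+ ATPase with a bromodomain, and 4 with a non-targeting control shRNA. Total RNA was collected 48 h after transfection in both groups, and the labels name no other treatment, no clone and no differentiation step. They also leave it unstated whether the 4 samples of a group were separate cultures, so the p-values cover only the variation among these libraries, which may be technical.

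An integrin is a dimer of an α and a β chain. The α chain largely sets which matrix protein is bound, and the tail of the β chain binds talin and kindlin, which link it to actin. In myoblasts the β1 chain pairs with α5 to bind fibronectin and with α3, α6 or α7 to bind laminin, and α7β1 is the main laminin receptor of muscle fibres. The αv chain pairs with β chains such as β1, β3, β5 or β8 to bind vitronectin and other ligands with an Arg-Gly-Asp motif. Syndecans carry heparan sulfate chains and act beside integrins, cadherins join cells to each other through catenins, and discoidin domain receptors are kinases that collagen activates.

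Levels are log2(normalized count + 1) as deposited, and fold changes are Atad2 shRNA over control shRNA on that log2 scale, with the standard error of the fit. Recovered depth was 50.3 to 72.3 Mreads (1e6 reads) per Atad2 library and 61.4 to 73.0 Mreads per control library. At these depths, 3 reads correspond to 0.0411 to 0.0596 reads per Mread of depth, a floor that covers counting error only. Genes with at least 1 read numbered 17753 ± 153 in the Atad2 libraries and 18889 ± 38.7 in the controls (SD, n = 4 each). Atad2 itself stood at 11.87, 11.77, 12.05 and 12.05 in the Atad2 libraries, against 14.66, 14.74, 14.67 and 14.61 in the controls (limma adjusted p = 4.58e-20). Of 8 myoblast markers, all tested, Myod1 (0.25 ± 0.04), Des (0.38 ± 0.03) and Myog (2.15 ± 0.26) were higher, and Myf5 (-1.28 ± 0.10), Cdh15 (-0.96 ± 0.05), Pax7 (-3.27 ± 0.70) and Chrna1 (-0.25 ± 0.04) were lower (log2 fold changes, limma adjusted p at most 0.0004). Vim did not pass (0.06 ± 0.04, limma adjusted p = 0.19) and, at 19.20 in the Atad2 libraries and 19.14 in the controls, made up most of their sum, which was 641159 to 663281 normalized counts per Atad2 library and 607246 to 637724 per control library. The part of these marker changes in the receptor results was not tested. On the second principal component, with 8.29% of the variance, Atad2 replicate 3 was set off from the remaining 7. Without it 15 members were still higher and 8 lower.

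The adhesion receptors split into genes that rose and genes that fell, often within a family. Of the 29 tested, 15 (51.7%) were higher in the Atad2 libraries, 8 (27.6%) were lower and 6 did not pass an adjusted p under 0.05 (limma, adjusted over all 14703 tested genes). Among all tested genes 30.8% were higher and 29.6% lower. Strongly expressed genes leaned upwards in this fit, with a median log2 fold change of 0.09 above a mean level of 11. Whether this lean holds by quantile normalization was not tested. Among the 6170 genes with a mean level above 11, 50.0% were higher and 21.7% lower, and of the 22 members in that range 15 (68.2%) were higher and 6 (27.3%) lower. The median log2 fold change of the tested members was 0.11 and that of all tested genes -0.01, while the median size of the change regardless of direction was 0.46 and 0.25. In 21 of the 29 the values of both groups did not overlap, against 53.5% of all tested genes. Alcam, Sdc3 and Itgb7 rose at least 2-fold, which 2.52% of all tested genes did, and Cdh1, Mcam and Sdc4 fell at least 2-fold, which 8.61% did. In bulk RNA, fewer cells expressing a gene and less RNA per cell cannot be told apart.

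**Figure D1:**
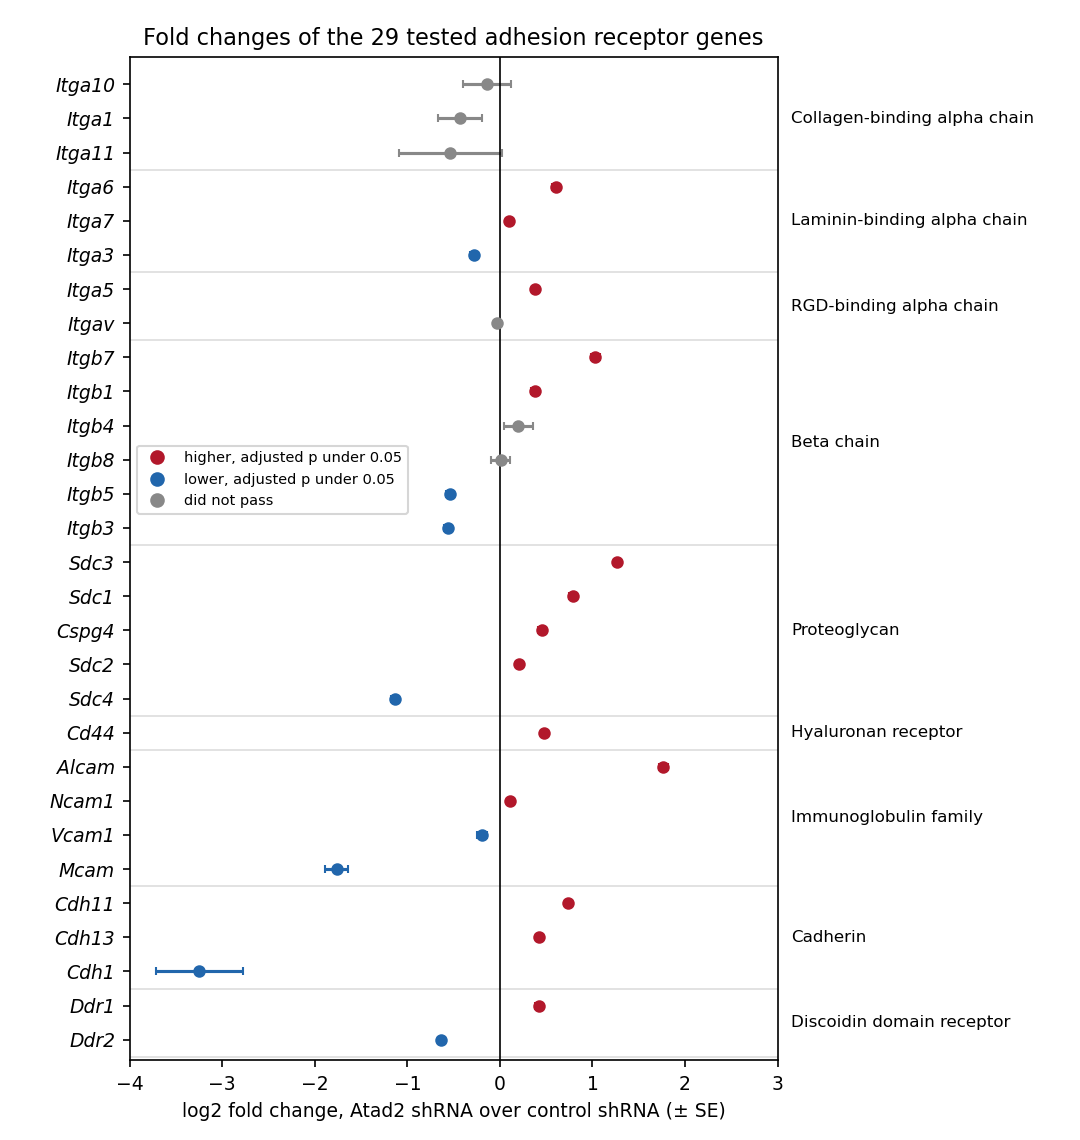
Log2 fold change (Atad2 shRNA over control shRNA) of the 29 tested adhesion receptor genes, grouped by role. Points are limma estimates with standard errors from 4 libraries per group, red where higher, blue where lower and grey where the test was not passed. Alcam is highest at 1.77 and Cdh1 lowest at -3.25, and β chains, proteoglycans and discoidin domain receptors each hold genes on both sides of 0.

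The regions before the start of 4 genes are shown because they belong to a pair of syndecans and a pair of β chains that moved in opposite directions. Each is the 250 bases before the RefSeq start of the gene (GRCm38.p6), read 5′ to 3′ on the strand of the gene. No GENCODE M21 exon lies in these windows. However, GENCODE M21 starts Sdc4, on the minus strand, at 164443887, so the Sdc4 window lies inside the gene as annotated there. Capitals mark every GC box, GGGCGG on either strand, which Sp family factors bind.
Sdc3 (chr4:130792287-130792536, plus strand): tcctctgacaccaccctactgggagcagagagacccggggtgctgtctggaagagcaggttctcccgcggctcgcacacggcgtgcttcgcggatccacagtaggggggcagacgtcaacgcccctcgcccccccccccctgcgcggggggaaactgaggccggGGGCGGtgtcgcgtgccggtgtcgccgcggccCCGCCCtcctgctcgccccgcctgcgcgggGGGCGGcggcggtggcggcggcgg
Sdc4 (chr2:164443189-164443438, minus strand): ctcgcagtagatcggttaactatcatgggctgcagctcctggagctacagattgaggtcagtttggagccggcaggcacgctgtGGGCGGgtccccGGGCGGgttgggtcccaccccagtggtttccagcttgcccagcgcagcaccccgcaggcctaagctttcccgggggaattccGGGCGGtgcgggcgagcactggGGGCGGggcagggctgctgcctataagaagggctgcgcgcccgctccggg
Itgb1 (chr8:128685404-128685653, plus strand): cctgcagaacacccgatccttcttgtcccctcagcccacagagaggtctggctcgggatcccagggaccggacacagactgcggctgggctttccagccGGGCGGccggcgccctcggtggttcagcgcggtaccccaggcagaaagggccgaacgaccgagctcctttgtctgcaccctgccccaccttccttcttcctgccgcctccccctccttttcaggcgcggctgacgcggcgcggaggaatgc
Itgb5 (chr16:33829415-33829664, plus strand): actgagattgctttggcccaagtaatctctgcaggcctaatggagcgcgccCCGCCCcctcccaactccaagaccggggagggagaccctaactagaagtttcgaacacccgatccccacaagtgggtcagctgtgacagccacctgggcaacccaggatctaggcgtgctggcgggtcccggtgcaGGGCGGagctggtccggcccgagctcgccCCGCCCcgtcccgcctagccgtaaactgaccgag
Sdc3 holds 3 GC boxes and Sdc4 holds 4, so the syndecan that rose and the syndecan that fell share this feature. Itgb1 holds 1 and Itgb5 holds 3. An E-box, CANNTG, which MyoD family factors bind, occurred 3 times before Itgb5 and was not found in the other 3 windows. The first letters of the Itgb5 E-boxes lie 131, 122 and 109 bases before its start. None of these E-boxes overlaps a GC box.

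RefSeq windows were found for 24 of the 35 members, 28 in all, and 1 was used for each member. The windows set beside them were not limited to 1 per gene or to tested genes. A difference in shares therefore need not be particular to these receptors. All 250 bases of the Mcam, Alcam, Itgb8 and Itga8 windows lie in GENCODE M21 exons, and the Ddr2 and Itga9 windows lie inside the genes as annotated there. A GC box occurred in 13 of the 24 (54.2%), and in 32.7% of all 32851 windows of the same length. It was present in 7 of 9 windows of members called higher and in 4 of 5 of those called lower. An E-box occurred in 15 of the 24 (62.5%) and in 66.2% of all windows. The AP-1 motif TGANTCA occurred in none of the 24 and in 6.75% of all windows, and the MCAT motif CATTCC in 2 of the 24 and 12.6% of all windows. A letter match describes these windows and is not evidence of binding.

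Among the α chains, Itga5 and Itga6 rose, Itga3 fell and Itgav did not pass the test. Itga6, a laminin-binding chain, had levels of 14.29, 14.23, 14.24 and 14.10 in the Atad2 libraries and 13.69, 13.64, 13.54 and 13.57 in the controls. Every Atad2 library lay above every control, and the log2 fold change was 0.61 ± 0.04 (limma adjusted p = 4.43e-11), a 1.52-fold rise. Itga5, the fibronectin-binding partner of β1, had 14.37, 14.30, 14.27 and 14.20 in the Atad2 libraries and 13.98, 13.93, 13.86 and 13.86 in the controls. It rose by 0.38 ± 0.04, again without overlap (limma adjusted p = 1.73e-08).

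Itga3, a laminin-binding chain that also pairs with β1, went the other way. Its levels were 13.48, 13.54, 13.57 and 13.70 in the Atad2 libraries and 13.93, 13.90, 13.77 and 13.83 in the controls. The groups did not overlap and the log2 fold change was -0.28 ± 0.04 (limma adjusted p = 8.1e-06). Itga7, the laminin receptor chain of muscle, lay at 13.17, 13.08, 13.05 and 13.17 in the Atad2 libraries and at 13.04, 13.04, 12.98 and 12.99 in the controls. Its difference of 0.10 ± 0.04 passed the test (limma adjusted p = 0.0156), but by quantile normalization it was -0.0023 and without Atad2 replicate 1 the adjusted p was 0.0604, so no direction is given for it although it is counted among the 15.

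Itgav, the common partner of β3 and β5, did not pass the test. It stood at 13.92, 13.94, 13.90 and 13.91 in the Atad2 libraries and at 13.97, 14.04, 13.95 and 13.85 in the controls, with a difference of -0.03 ± 0.03 (limma adjusted p = 0.455). By quantile normalization Itgav was lower, at -0.14 (limma adjusted p = 0.00199). The collagen-binding chains were weak throughout. Itga1 averaged 6.33 ± 0.41 in the Atad2 libraries and 6.76 ± 0.35 in the controls (SD, n = 4 each). Itga10 averaged 6.16 ± 0.51 in the Atad2 libraries and 6.29 ± 0.32 in the controls, and Itga11 averaged 3.55 ± 1.26 in the Atad2 libraries and 4.08 ± 0.18 in the controls. None of the 3 passed (limma adjusted p from 0.119 to 0.671), although without Atad2 replicate 4 Itga1 was lower, at -0.62 (limma adjusted p = 0.0253). Itga10 shares 33.5% of its annotated exon length with Gm42957 on the same strand, so its reads are uncertain.

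Itga2, Itga4, Itga8 and Itga9 lay below the minimum mean level of 3. Itga2, Itga8 and Itga9 had 0 to 8 reads per Atad2 library and 0 to 12 per control library. Itga4, which pairs with β1 or β7 to bind VCAM-1 and fibronectin, had 27, 23, 32 and 9 reads in the Atad2 libraries and 5, 0, 1 and 1 in the controls. All 4 Atad2 libraries exceeded all 4 controls, at levels that are a small part of those of the main chains. In a fit without the minimum level its log2 fold change was 3.44 ± 0.70 (limma adjusted p = 0.0138), a value that depends on the offset of 1 because the controls are at or near 0. Its exons overlap those of Cerkl on the opposite strand over 8.04% of their length.

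Of the β chains, Itgb1 and Itgb7 rose and Itgb3 and Itgb5 fell. Itgb1, the chain shared by most integrins of these cells, had 15.41, 15.38, 15.36 and 15.22 in the Atad2 libraries and 14.96, 15.05, 14.93 and 14.92 in the controls. Its log2 fold change was 0.38 ± 0.04, without overlap (limma adjusted p = 4.44e-08). Itgb7 (chromosome 15, 102215995 to 102231944), known mainly from lymphocytes as the partner of α4 and αE, had 12.02, 12.02, 11.98 and 12.08 in the Atad2 libraries and 11.12, 11.04, 10.90 and 10.91 in the controls. This was a 2.04-fold rise, with a log2 fold change of 1.03 ± 0.05 (limma adjusted p = 1.9e-13).

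The RNAs of both known α partners of β7 were far weaker. Itgae had 6 to 23 reads per Atad2 library and 2 to 25 per control library and did not pass (0.70 ± 0.72, limma adjusted p = 0.419), and Itga4 is given above. Itgb7 itself had 3141 to 4530 reads per Atad2 library and 2064 to 2359 per control library.

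Of the β chains among the members that can pair with αv, Itgb3 and Itgb5 fell, Itgb1 rose and Itgb8 did not pass the test. Another partner, Itgb6, lies outside the members and is given with the further integrins. Itgb3 had 12.38, 12.36, 12.35 and 12.46 in the Atad2 libraries and 12.92, 12.87, 13.00 and 13.01 in the controls, a log2 fold change of -0.56 ± 0.04 (limma adjusted p = 5.74e-11). Itgb5 had 12.28, 12.43, 12.23 and 12.36 in the Atad2 libraries and 12.88, 12.91, 12.81 and 12.85 in the controls, a change of -0.54 ± 0.04 (limma adjusted p = 4.61e-10). In both genes each Atad2 library lay below each control. Itgb8, which with αv activates latent TGF-β, averaged 9.10 ± 0.21 in the Atad2 libraries and 9.09 ± 0.12 in the controls and did not pass (0.01 ± 0.10, limma adjusted p = 0.945). Itgb4, the partner of α6 in hemidesmosomes, averaged 7.30 ± 0.14 in the Atad2 libraries and 7.10 ± 0.08 in the controls and did not pass either (0.20 ± 0.16, limma adjusted p = 0.279), but was higher by 0.59 by quantile normalization (limma adjusted p = 0.00319).

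**Figure D2:**
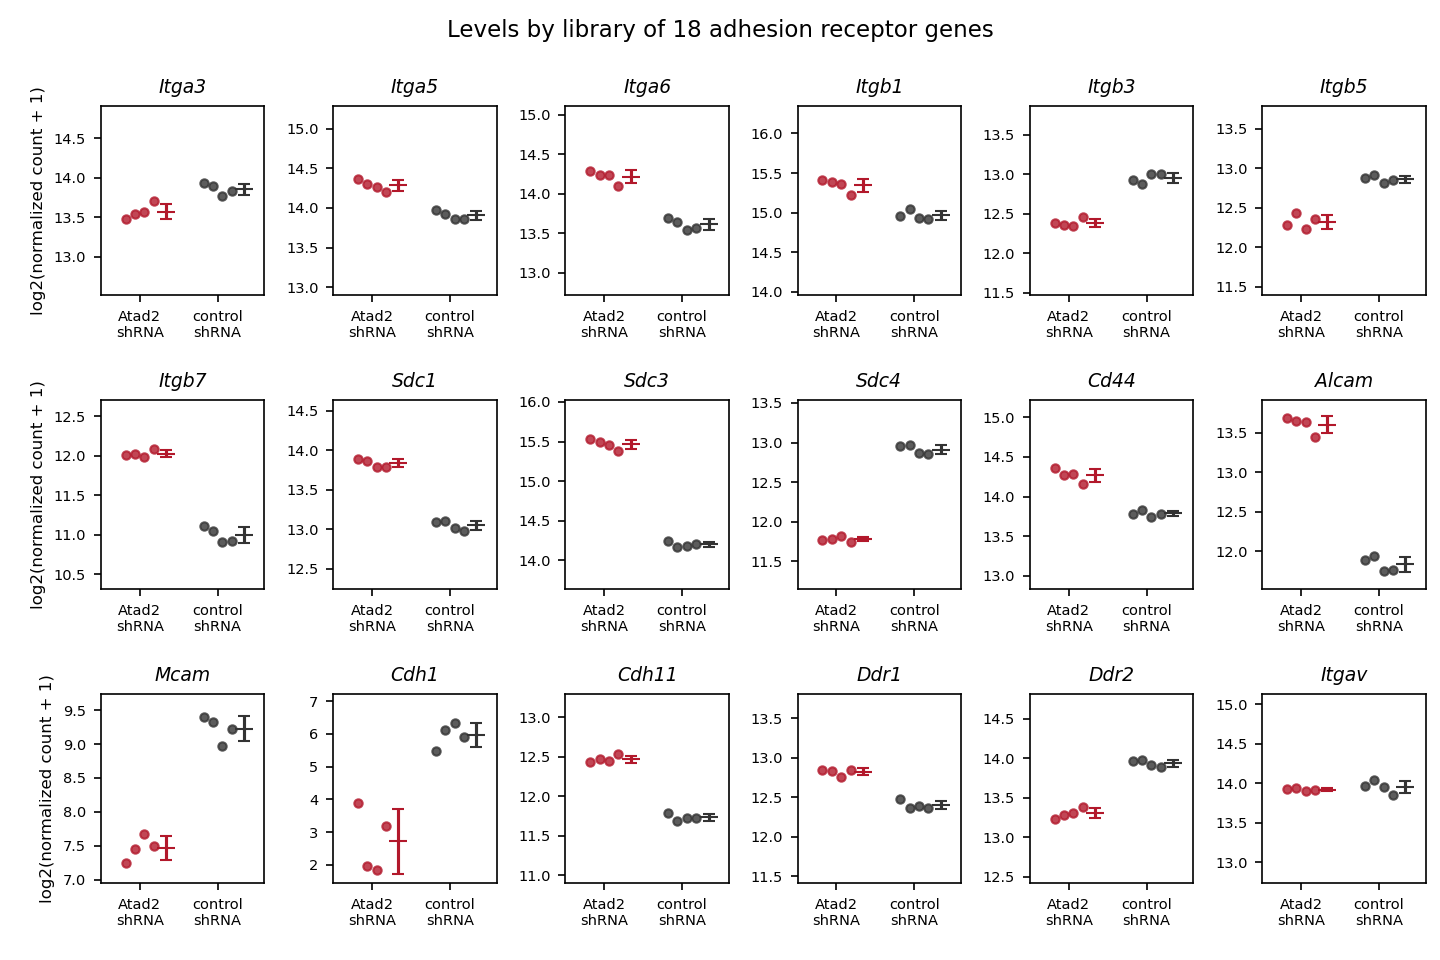
Levels by library, as log2(normalized count + 1), of 18 of the receptor genes, with Atad2 shRNA in red and control shRNA in black. Dots are libraries and bars are means ± SD of 4 libraries, and each panel has its own range. The groups are apart in every panel except Itgav, where the Atad2 libraries (13.90 to 13.94) lie within the range of the controls (13.85 to 14.04).

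Levels of different genes were set side by side as normalized counts per kilobase of annotated exon length, so that long genes do not count for more. On that scale the 6 β chains summed to 14127 ± 519 in the Atad2 libraries and 12075 ± 350 in the controls (SD, n = 4 each). Itgb1 made up 73.4%, 72.3%, 73.3% and 69.6% of the sum in the Atad2 libraries and 64.4%, 66.0%, 64.6% and 64.3% in the controls. The share of Itgb7 was 10.7 ± 0.68% in the Atad2 libraries and 6.11 ± 0.36% in the controls. Itgb5 held 10.2 ± 0.74% in the Atad2 libraries and 17.3 ± 0.19% in the controls, and Itgb3 held 6.44 ± 0.44% in the Atad2 libraries and 11.1 ± 0.80% in the controls. Thus, per kilobase, Itgb7 was the weakest of the 4 main β chains in the controls and lay above Itgb3 in each Atad2 library. Without division by length Itgb7 lay below Itgb3 in both groups.

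For the α chains the per-kilobase sum was 10866 ± 183 in the Atad2 libraries and 9624 ± 389 in the controls. Itga5 held the largest share in both groups, with 37.3 ± 1.19% in the Atad2 libraries and 32.3 ± 0.25% in the controls. Itga6 held 19.4 ± 0.84% in the Atad2 libraries and 14.4 ± 0.18% in the controls, and Itga3 held 19.7 ± 1.59% in the Atad2 libraries and 27.0 ± 0.48% in the controls. Itgav held 13.3 ± 0.21% in the Atad2 libraries and 15.3 ± 0.58% in the controls, and Itga7 held 10.1 ± 0.41% in the Atad2 libraries and 10.6 ± 0.20% in the controls. Itga3 and Itga6 had overlapping shares in the Atad2 libraries, whereas Itga3 lay above Itga6 in each control library. Shares within a family are linked, since a rise of 1 member lowers the rest.

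**Figure D3:**
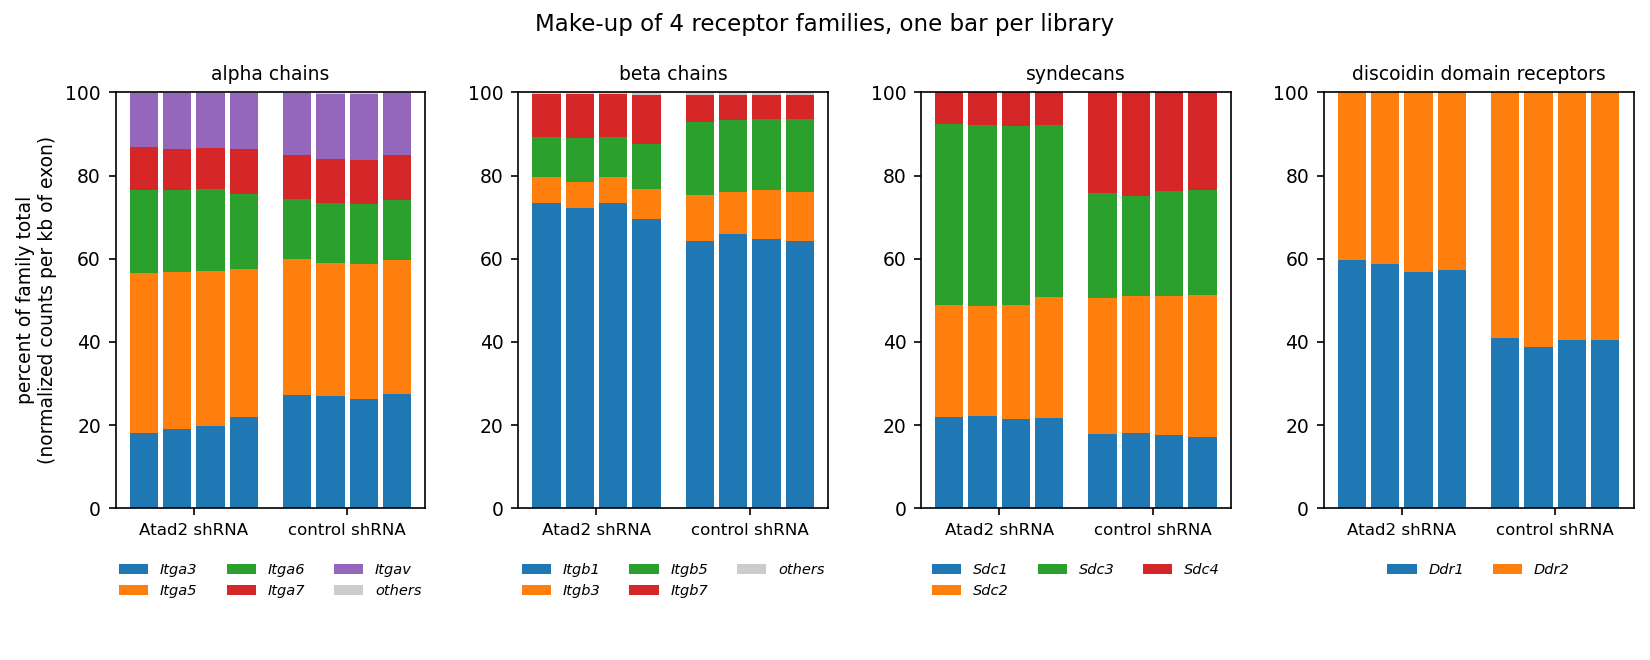
Share of each gene in the summed normalized counts per kilobase of exon of its family, in percent, with a bar for each library (Atad2 shRNA left, control shRNA right in each panel). Itgb1 takes 69.6% to 73.4% of the β chain sum in Atad2 libraries and 64.3% to 66.0% in controls, and Sdc3 takes 41.4% to 43.6% of the syndecan sum in Atad2 libraries and 24.1% to 25.4% in controls.

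Among the syndecans, 3 rose and Sdc4 fell. Sdc3 (chromosome 4, 130792537 to 130826319) is a syndecan, though not the only one, of muscle progenitors and is also found in nerve. It had 15.53, 15.49, 15.45 and 15.38 in the Atad2 libraries and 14.24, 14.16, 14.18 and 14.21 in the controls. It rose 2.40-fold (log2 fold change 1.27 ± 0.03, limma adjusted p = 1.92e-17). Sdc4 (chromosome 2, 164424247 to 164443887), the syndecan of focal adhesions, had 11.77, 11.78, 11.81 and 11.75 in the Atad2 libraries and 12.96, 12.97, 12.87 and 12.85 in the controls. It fell (log2 fold change -1.13 ± 0.04, limma adjusted p = 6.14e-16), and neither gene overlapped between groups. The 6 neural and Schwann cell markers listed summed to 1042 to 1324 normalized counts per Atad2 library and 710 to 968 per control library, Tubb3 rose, Mbp fell and Sox10 had no read. The part of such cells in the Sdc3 result was not tested.

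Sdc1, best known from epithelia and plasma cells, had 13.89, 13.86, 13.79 and 13.79 in the Atad2 libraries and 13.10, 13.10, 13.01 and 12.98 in the controls, a rise of 0.79 ± 0.04 (limma adjusted p = 8.77e-14). Sdc2 rose by less, with 14.07, 14.00, 14.05 and 14.12 in the Atad2 libraries and 13.86, 13.85, 13.83 and 13.87 in the controls (0.21 ± 0.03, limma adjusted p = 7.84e-06). Per kilobase, the syndecan sum was 17594 ± 372 in the Atad2 libraries and 12575 ± 247 in the controls. Sdc3 supplied 42.9 ± 1.03% of it in the Atad2 libraries and 25.0 ± 0.58% in the controls, and Sdc4 supplied 7.83 ± 0.22% in the Atad2 libraries and 24.0 ± 0.63% in the controls. Sdc2 supplied 27.5 ± 1.24% in the Atad2 libraries and 33.3 ± 0.65% in the controls, and Sdc1 supplied 21.8 ± 0.37% in the Atad2 libraries and 17.7 ± 0.46% in the controls. On this scale Sdc2 was thus the most abundant syndecan RNA in the controls and Sdc3 in the Atad2 libraries. Without division by length Sdc3 lay highest in both groups.

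Cspg4, the chondroitin sulfate proteoglycan NG2 of pericytes and myogenic cells, had 13.89, 13.84, 13.82 and 13.64 in the Atad2 libraries and 13.43, 13.33, 13.30 and 13.32 in the controls. Cd44, the hyaluronan receptor, had 14.36, 14.27, 14.29 and 14.15 in the Atad2 libraries and 13.78, 13.83, 13.75 and 13.78 in the controls. Both rose without overlap, by 0.46 ± 0.04 and 0.48 ± 0.04 (limma adjusted p = 2.25e-08 and 5.91e-10).

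In the immunoglobulin family the largest rise and the second-largest fall of all tested members stood side by side. Alcam (chromosome 16, 52248996 to 52454074), the homophilic adhesion molecule CD166, had 13.68, 13.64, 13.64 and 13.44 in the Atad2 libraries and 11.89, 11.94, 11.75 and 11.76 in the controls. It rose 3.40-fold (log2 fold change 1.77 ± 0.05, limma adjusted p = 5.07e-17). Mcam (chromosome 9, 44134469 to 44142727), the adhesion molecule CD146 of vessels and muscle precursors, had 7.25, 7.45, 7.67 and 7.49 in the Atad2 libraries and 9.40, 9.32, 8.97 and 9.22 in the controls. It fell 3.39-fold (log2 fold change -1.76 ± 0.12, limma adjusted p = 1.22e-10). Both genes were far apart between the groups, with the nearest values of Mcam at 7.67 and 8.97. The 7 endothelial markers listed summed to 28.3 to 51.2 normalized counts per Atad2 library and 44.5 to 62.4 per control library. Only 3 of them were tested and none of these passed, and Emcn and Cldn5 had no read. The part of such cells in the Mcam result was not tested.

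Vcam1, the ligand of α4 integrins, had 11.38, 11.39, 11.38 and 11.56 in the Atad2 libraries and 11.79, 11.60, 11.56 and 11.54 in the controls. It changed by -0.19 ± 0.06 (limma adjusted p = 0.00462), and Atad2 replicate 4 overlapped the controls. Ncam1, a homophilic molecule of myoblasts and neurons, had 13.61, 13.54, 13.50 and 13.41 in the Atad2 libraries and 13.41, 13.46, 13.37 and 13.36 in the controls, with overlap. Its difference of 0.11 ± 0.04 (limma adjusted p = 0.0152) was 0.03 by quantile normalization (limma adjusted p = 0.571) and lost its call without Atad2 replicate 1 (limma adjusted p = 0.0754). Icam1, a ligand of leukocyte integrins, had at most 1 read in an Atad2 library and at most 5 in a control library and was not tested.

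The cadherins also moved apart. Cdh11, a cadherin of mesenchymal cells, had 12.43, 12.47, 12.44 and 12.53 in the Atad2 libraries and 11.78, 11.69, 11.72 and 11.72 in the controls, a rise of 0.74 ± 0.04 (limma adjusted p = 7.19e-13). Cdh13, which lacks the usual cytoplasmic domain and is held by a lipid anchor, had 11.97, 11.91, 11.96 and 11.93 in the Atad2 libraries and 11.53, 11.54, 11.55 and 11.46 in the controls, a rise of 0.43 ± 0.04 (limma adjusted p = 7.15e-09). Neither gene overlapped between the groups. Cdh4 had no read in any of the 8 libraries.

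Cdh1 (chromosome 8, 106603351 to 106670246), the epithelial E-cadherin, was weak in both groups. It had 15, 3, 2 and 7 reads in the Atad2 libraries and 46, 68, 86 and 70 in the controls, without overlap. Its log2 fold change was -3.25 ± 0.47 (limma adjusted p = 4.56e-06), and -2.29 when 8 was added in place of 1 before taking logs. Of 7 epithelial markers, Cdh1 and Krt19 were tested and both fell, Epcam and Esrp1 had no read in any library, and the list summed to 57.4 to 106 normalized counts per Atad2 library and 254 to 351 per control library. The part of such cells in the Cdh1 result was not tested.

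The collagen-activated kinases moved in opposite directions. Ddr1 had 12.85, 12.84, 12.76 and 12.85 in the Atad2 libraries and 12.48, 12.37, 12.40 and 12.37 in the controls, a rise of 0.42 ± 0.04 (limma adjusted p = 3.82e-09). Ddr2, the discoidin receptor of mesenchymal cells, had 13.23, 13.29, 13.31 and 13.38 in the Atad2 libraries and 13.96, 13.98, 13.91 and 13.89 in the controls, a change of -0.63 ± 0.03 (limma adjusted p = 2.27e-12). Neither overlapped between the groups, and at these levels Ddr2 stayed above Ddr1 in each Atad2 library. Per kilobase, Ddr1 supplied 58.1 ± 1.36% of their sum in the Atad2 libraries and 40.2 ± 0.92% in the controls, and the sum itself was 2611 ± 62.1 in the Atad2 libraries and 2829 ± 75.7 in the controls.

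**Figure D4:**
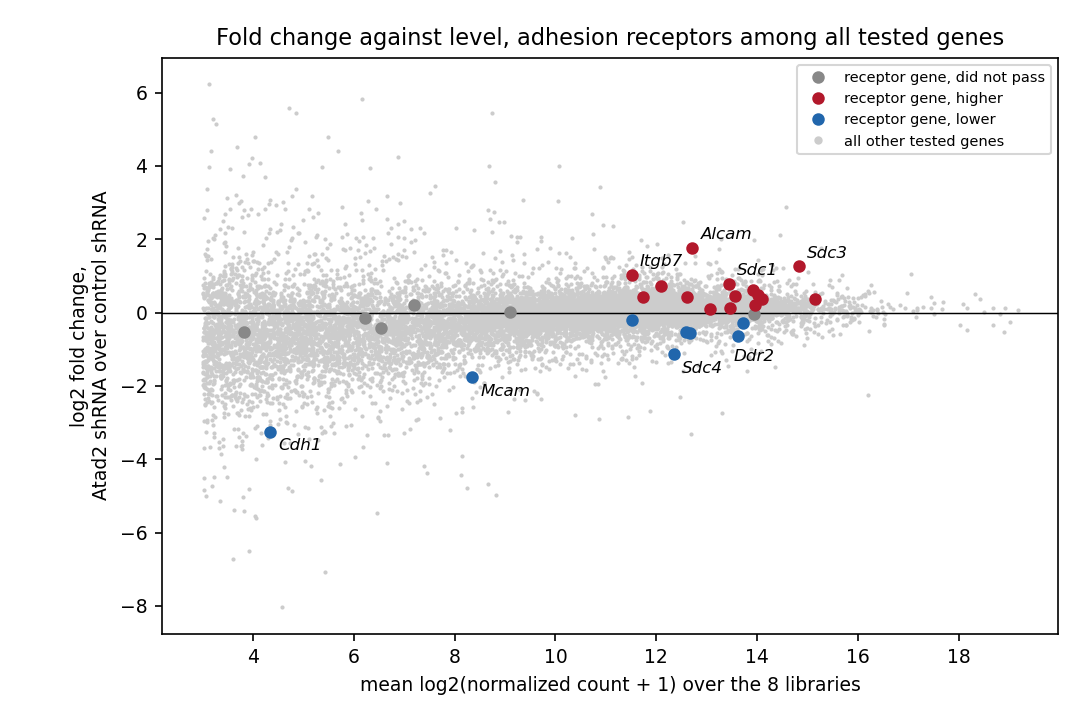
Log2 fold change (Atad2 shRNA over control shRNA, y axis) against mean level over the 8 libraries (x axis, log2 of normalized count + 1) for all 14703 tested genes in light grey, with the receptor genes as large dots coloured by call. All 15 members called higher, Itga7 and Ncam1 included, lie above a mean level of 11, Mcam and Cdh1 fell at lower levels, and 5 of the 6 that did not pass lie below 10.

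Integrins outside these members were weak. Of 10 further integrin genes, 5 were tested. Itgb2, the leukocyte β2 chain, had 36 to 111 reads per Atad2 library and 2 to 10 per control library and rose by 3.69 ± 0.47 (limma adjusted p = 9.38e-07). Its α partners did not follow it. Itgal had 1 to 8 reads per Atad2 library, near the floor of 3 reads, and 16 to 18 per control library. Its log2 fold change was -1.88 ± 0.60 (limma adjusted p = 0.0105). Itgam had at most 1 read in any library, and Itgad and Itgax had none. Itga2b and Itgb6 were lower, at -0.63 and -0.57. The 3 lower calls of this list fell to 1 without Atad2 replicate 1 and to 0 with quantile normalization. Leukocyte markers, of which Itgb2 is an example, summed to 599 to 806 normalized counts per Atad2 library and 243 to 310 per control library. Cd68 made up most of this sum and rose by 1.17 ± 0.11, while Adgre1 and Cd3e had no read and Ptprc at most 4 reads in any library. The part of such cells in the Itgb2 and Itgb7 results was not tested.

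Genes around the receptors were counted by pathway lists. Each gene given with its fold change in the next 5 paragraphs passed the test (limma adjusted p at most 0.000249), unless another p is given. Of 41 tested focal adhesion genes, which tie integrins to actin, 11 (26.8%) were higher, 19 (46.3%) lower and 11 did not pass. Their median log2 fold change was -0.07. Among all tested genes 30.8% were higher and 29.6% lower, and among strongly expressed genes 50.0% and 21.7%. The actin crosslinker gene Actn1 changed by -0.62 ± 0.03, Vcl (vinculin) by -0.58 ± 0.03 and Sorbs3 (vinexin) by -0.82 ± 0.04. Parvb, which joins integrin-linked kinase to actin, rose by 0.81 ± 0.04, the scaffold gene Git1 by 0.49 ± 0.04 and the Src-inhibiting kinase gene Csk by 0.47 ± 0.04.

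Genes of the matrix ligands went both ways, with 13 of 33 tested (39.4%) higher, 15 (45.5%) lower and a median of -0.02. The shares of all tested genes were 30.8% higher and 29.6% lower, and those of strongly expressed genes 50.0% and 21.7%. Spp1, the αv and β1 integrin ligand osteopontin, rose by 1.04 ± 0.04 and the laminin chain gene Lama2 by 0.79 ± 0.04. Nid1, the gene of a laminin-binding protein, rose by 0.53 ± 0.03. Nid2 changed by -1.58 ± 0.05, Thbs1 (thrombospondin) by -1.49 ± 0.05 and Ctgf, an integrin-binding matricellular protein gene, by -2.70 ± 0.11.

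Of 19 tested genes of cadherin and nectin junctions, 5 (26.3%) were higher and 12 (63.2%) lower (median -0.25). The shares were 30.8% higher and 29.6% lower for all tested genes, and 50.0% and 21.7% for strongly expressed genes. Nectin1 rose by 1.24 ± 0.05, Ctnnb1 (β-catenin) by 0.52 ± 0.03 and Nectin2 by 0.29 ± 0.06. Cdh15, the M-cadherin of myoblasts, changed by -0.96 ± 0.05, and the large cadherin genes Fat4 and Fat1 by -0.83 ± 0.04 and -0.51 ± 0.03.

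Of 29 tested genes of integrin traffic, shedding and partner tetraspanins, 16 (55.2%) were higher and 6 (20.7%) lower (median 0.15). These shares were near the 50.0% and 21.7% of strongly expressed genes, against 30.8% and 29.6% of all tested genes. The endocytic adaptor gene Dab2 rose by 0.41 ± 0.03, the sheddase gene Adam17 by 0.44 ± 0.03 and Slc3a2, a transporter subunit that binds β1 tails, by 0.48 ± 0.04. Numbl changed by -0.67 ± 0.05, the tetraspanin gene Cd82 by -0.42 ± 0.06 and the membrane protease gene Mmp14 by -0.20 ± 0.03.

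The list for heparan and chondroitin sulfate held genes of chain synthesis, of enzymes that act on finished chains, and the proteoglycan genes Gpc1 and Gpc6. Of its 22 tested genes, 12 (54.5%) were higher and 4 (18.2%) lower (median 0.19). These shares were again near those of strongly expressed genes, against 30.8% and 29.6% of all tested genes. The sulfotransferase genes Chst11, Ndst1 and Hs6st1 rose by 0.84 ± 0.06, 0.40 ± 0.03 and 0.39 ± 0.04. Of the enzymes that act on finished chains, the sulfatase gene Sulf2 changed by -1.25 ± 0.07 and the heparanase gene Hpse by -1.56 ± 0.13. The related sulfatase gene Sulf1, named after its values were seen, was higher by 0.17 ± 0.05 (limma adjusted p = 0.00405). Hs3st1, a sulfotransferase gene, had 2 to 10 reads per Atad2 library and 105 to 171 per control library (-4.05 ± 0.39, limma adjusted p = 1.74e-08).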

How the data were processed

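RNA-seq values of 4 Atad2 shRNA and 4 control shRNA libraries were used. The deposited values are log2 values, to 3 decimals, of a scaled count plus 1. The values themselves show this scale: converted back, 100% of the low values of each library lie within 0.1 of whole multiples of a single step, so the authors appear to have divided whole counts by a factor for each library. The submitters' processing notes name DESeq2, HTSeq 0.13.5, SAMtools 1.1, bcl2fastq 2.20 and the build mm10, in no order; no aligner, annotation or strand setting is named there, and the values of overlapping genes are therefore uncertain. Per the labels' protocols, the kit keeps strand. Reads were recovered by that step for depth and floors.

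Genes with a mean above 3 were tested on the log2 values with limma 3.58.1 in R 4.3.3 (lmFit, eBayes with trend), two-sided, Benjamini-Hochberg adjusted over 14703 genes, and called at an adjusted p under 0.05. A fold change on this scale understates changes of weak genes. Exon lengths and coordinates are from GENCODE M21 (GRCm38, the assembly of mm10), promoter windows from RefSeq (GRCm38.p6). Simulated data for this comparison ran on 15081 genes. The fit recovered 78% of the 50 genes with a true log2 change of 0.25 and 94% of the 50 with 0.5. The simulation changed far fewer genes than were called here, none of them weak, and gave every gene the same scatter beyond counting error. Its rates therefore need not hold for these data. Python 3.11.15, NumPy 2.4.6, pandas 2.3.3, SciPy 1.17.1 and matplotlib 3.10.9 made tables and plots. Members, lists and tests were chosen with earlier results of these data known. All 35 members are accounted for, and each list names up to 3 called genes per direction by adjusted p. The alternatives were no minimum level, a mean above 5, an offset of 8, quantile normalization, median centring, no variance trend, a robust prior, limma-voom on the recovered reads, a replicate block, an adjusted p under 0.01 and leaving out each library.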

Additional observations from a re-analysis of the deposited data

Results flagged for a closer look

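Of 70 groups of 4 values with any spread, 5 had a highest or lowest library farther from the rest than Dixon's 95% critical value allows. Chance alone flags about 1 in 20 groups. Vcam1 stood at 11.56 in Atad2 replicate 4, with the next value at 11.39. Ddr1 stood at 12.76 in Atad2 replicate 3, with the next value at 12.84. The others were single libraries with few reads of a gene at 0 in the other 3 libraries of the group: Itga9 at 2.89 (7 reads) in Atad2 replicate 1, and Icam1 at 1.11 (1 read) in Atad2 replicate 4 and at 2.50 (5 reads) in control replicate 3.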

How the results depend on the processing

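Over the 18 alternatives, 13 to 15 members were higher and 7 to 9 lower, and 20 of the 23 called members kept direction and call in each alternative that tested them. Itga7 and Ncam1 were lost without a minimum level (limma adjusted p = 0.0875 and 0.171), without the variance trend (0.0562 and 0.0857), at an adjusted p under 0.01, and as given in the results, and Vcam1 was lost without a minimum level (0.119). Quantile normalization turned Itga7 to -0.0023, Itga10 to 0.32 and Itga11 to 0.0443. Among genes that were not called, Itgb8 was -0.0039 with limma-voom, and leaving out a library gave -0.3008 to 0.0852 for Itga10, -0.8753 to 0.0737 for Itga11 and -0.0871 to 0.0799 for Itgb8; the cause was not tested. For the 10 further integrins, the 3 lower calls became 0 without a minimum level, with quantile normalization and at an adjusted p under 0.01, and 1 without the variance trend and without Atad2 replicate 1, and the 1 higher call became 0 with a mean above 5. By quantile normalization the focal adhesion list had 8 higher and 25 lower genes, the traffic list 11 and 6, and the heparan and chondroitin sulfate list 11 and 6. The matrix ligand list had 11 and 16, and the cadherin list kept 5 and 12. Limma-voom on the recovered reads called 4567 genes higher and 4385 lower. Leaving out a library gave 4254 to 4573 higher and 4039 to 4401 lower genes. The labels share replicate numbers between groups without saying that a number marks a shared culture, and same-numbered libraries had deviations with correlations of -0.05 to 0.12, so the numbers were not taken to pair them. With the replicate block 4562 genes were higher and 4379 lower, with 15 members higher and 8 lower. Members under about 10 reads per library are limited by depth.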
